A study of Mus musculus with 6 samples.

Results

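The PDGF, VEGF and angiopoietin signals described here are 10 genes, taken by symbol from the gene table: the platelet-derived growth factor ligands Pdgfa, Pdgfb, Pdgfc and Pdgfd, their receptors Pdgfra and Pdgfrb, the vascular growth factors Vegfa and Vegfb, and the angiopoietins Angpt1 and Angpt2. They are 10 of the 46983 genes measured, each symbol matched 1 gene, and all 10 passed the filter on low values. RNA-seq was done on aortic valves of untreated wild-type C57BL/6J mice, in 3 libraries from postnatal day 2 (PND2) and 3 from 4 months of age. Each library was made from the pooled valves of 5 to 6 pups or mice, so the spread between libraries is between pools and hides the spread between animals. The question asked of the 2 ages was which transcripts go with growth and remodelling of the valve after birth and which with its upkeep in the adult.

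PDGF ligands act as dimers on 2 receptor tyrosine kinases, PDGFR-alpha and PDGFR-beta. The A and B chains are secreted ready to bind, whereas the C and D chains carry a CUB domain that a protease must remove before they bind a receptor. PDGFR-alpha takes A, B and C chains and PDGFR-beta takes mainly B and D chains. Endothelial cells are a classical source of PDGF-B, and the pericytes, smooth muscle cells and fibroblasts around them carry the receptors. VEGF-A acts on endothelial cells through VEGFR2 (Kdr) and is bound by VEGFR1 (Flt1), which is the receptor of VEGF-B. Angiopoietin-1, made mostly by mural and mesenchymal cells, activates the endothelial receptor TIE2 (Tek), and angiopoietin-2, made mostly by endothelial cells, can oppose it. In the heart valves an endothelial layer covers a core of interstitial cells, and the healthy leaflet is largely free of blood vessels.

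Levels are given as RPKM, the reads on a gene scaled to the length of its exons and the total of the library. The library totals ran from 23810507 to 38994657. The 10 genes held between 625 and 30539 counted reads in a library, so none was near the limit of detection. A read can be counted more than once in these values. The labelled tissue was checked against marker genes. Interstitial markers were high at both ages (summed RPKM of 7 genes 6459 to 7113 at PND2 and 7993 to 10099 at 4 months) and endothelial markers were present. Cardiomyocyte markers were also high (6 genes, 14394 to 16617 at PND2 and 4179 to 8662 at 4 months). The adipocyte markers Cidec and Lep were listed at 0 in every PND2 library and present in every 4-month library. Fabp4, another adipocyte marker, overlapped between the ages, at 63.7 to 147 RPKM at PND2 and 52.5 to 183 at 4 months. The sum of the 5 adipocyte markers overlapped too (63.7 to 147 and 122 to 436). At PND2 nearly all of this sum was Fabp4. Adipoq and Plin1 did not overlap, with means of 0.107 and 0.0324 RPKM at PND2 and 70.0 and 23.9 at 4 months. The sum was uneven at 4 months, with 122, 436 and 149 RPKM in libraries 1, 2 and 3. In bulk tissue, fewer cells of a type and less RNA per cell cannot be told apart.

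Of the 10 genes, 3 were higher at 4 months and none was lower: Pdgfd, Angpt1 and Pdgfrb. These were also the 3 genes whose libraries did not overlap between the ages. The other 7 gave adjusted p of 0.290 to 0.890 with log2 fold changes between -0.29 and 0.11 (limma on log2(RPKM + 0.1), 2-sided, Benjamini-Hochberg adjustment over 25903 genes, called under 0.05). Over all genes tested, 35.8% were called, 14.7% as higher and 21.1% as lower, and 50.0% had libraries that did not overlap between the ages. A count of 3 of 10 is near the share called in either direction and below the share that did not overlap, and by itself it does not set these genes apart. The median log2 fold change was 0.06 over the 10 genes and -0.14 over all genes tested. Scaling each library to its median gene brought the latter to -0.02 and turned the split of calls over all genes from 3810 higher and 5463 lower to 4601 higher and 4129 lower.

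**Figure D1:**
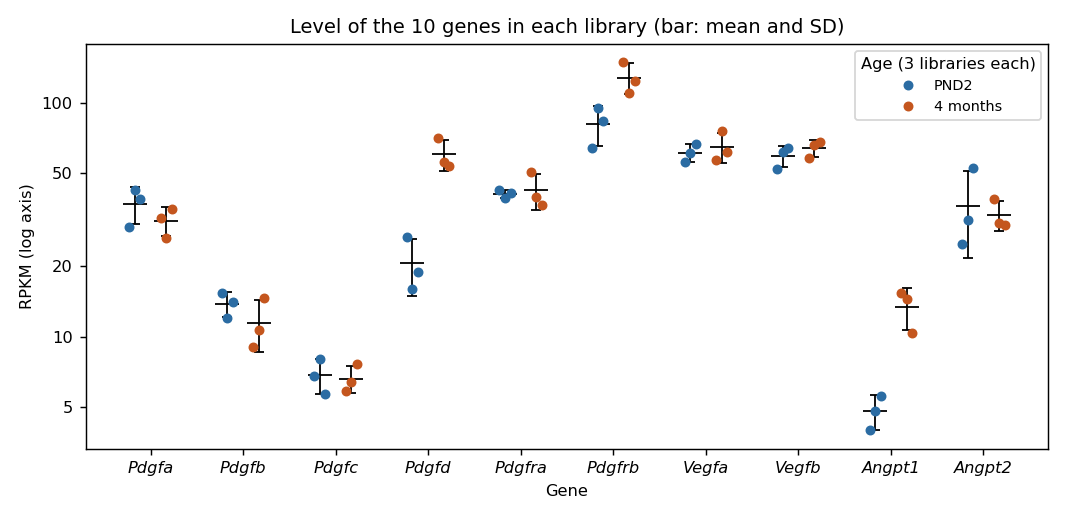
RPKM (log axis) of the 10 genes in each library, with PND2 in blue and 4 months in orange; points are the 3 libraries of an age, and the bar and whiskers give their mean and SD. The ages separate for Pdgfd, Pdgfrb and Angpt1 and overlap for the other 7 genes.

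Among the PDGF ligands only Pdgfd passed the test. Pdgfd (ENSMUSG00000032006, mm10 chromosome 9, 6168612 to 6378843, plus strand), whose product binds PDGFR-beta, had an RPKM of 26.8, 16.0 and 19.0 in PND2 libraries 1, 2 and 3, and of 70.8, 55.9 and 53.9 in 4-month libraries 1, 2 and 3. Every 4-month library lay above every PND2 library, the lowest by more than the whole range within PND2. The mean rose from 20.6 ± 5.59 to 60.2 ± 9.23 (SD, n = 3 per age), which is 2.92-fold, with a log2 fold change of 1.57 (SE 0.20, limma adjusted p = 0.00135). The change stood at the 94.5 percentile of all genes tested, and the call was lost in 1 of 18 alternatives, the unequal-variance test (adjusted p = 0.0518). The libraries at hand gave 1522 to 3262 reads on Pdgfd at PND2 and 4155 to 8251 at 4 months.

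The other ligands overlapped between the ages. Pdgfa, which encodes the A chain that binds PDGFR-alpha, measured 29.5, 42.4 and 38.9 RPKM at PND2 and 32.3, 26.5 and 35.2 at 4 months. The log2 fold change of Pdgfa was -0.23 with a 95% interval of -0.62 to 0.16 (limma adjusted p = 0.329). Pdgfb, which encodes the B chain, measured 15.4, 12.0 and 14.0 RPKM at PND2 and 9.07, 10.7 and 14.6 at 4 months. In 4-month library 3 it lay within the PND2 range, while the other two 4-month libraries lay below all 3 PND2 libraries. The log2 fold change of Pdgfb was -0.29 with an interval of -0.74 to 0.17 (limma adjusted p = 0.290). Pdgfc, the other ligand with a CUB domain, was the lowest of the ligands, at 6.78, 8.01 and 5.68 RPKM at PND2 and 5.83, 6.42 and 7.60 at 4 months. Its interval, -0.46 to 0.38 on the log2 scale, leaves room for a change of modest size in either direction (limma adjusted p = 0.890).

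Summed over the 4 genes, PDGF ligand RNA was 78.1 ± 0.525 RPKM at PND2 and 110 ± 9.39 at 4 months (SD, n = 3). The D chain held more of it at 4 months. Pdgfd made up 34.2, 20.4 and 24.5% of the sum in the PND2 libraries and 60.0, 56.2 and 48.4% in the 4-month libraries. Pdgfa was the most abundant ligand in every PND2 library and Pdgfd in every 4-month library. Pdgfa made up 47.2 ± 8.65% at PND2 and 28.5 ± 2.71% at 4 months. Pdgfb went from 17.7 ± 2.22% to 10.5 ± 2.74% and Pdgfc from 8.73 ± 1.45% to 6.07 ± 1.00%. None of the 4 shares overlapped between the ages, and each gave p = 0.1 in a 2-sided exact permutation test (adjusted over the 4, 0.1), which is the smallest value that 3 libraries against 3 can give. The shares add up to the whole, so a higher share of Pdgfd lowers the others even where their own levels did not pass a test.

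**Figure D2:**
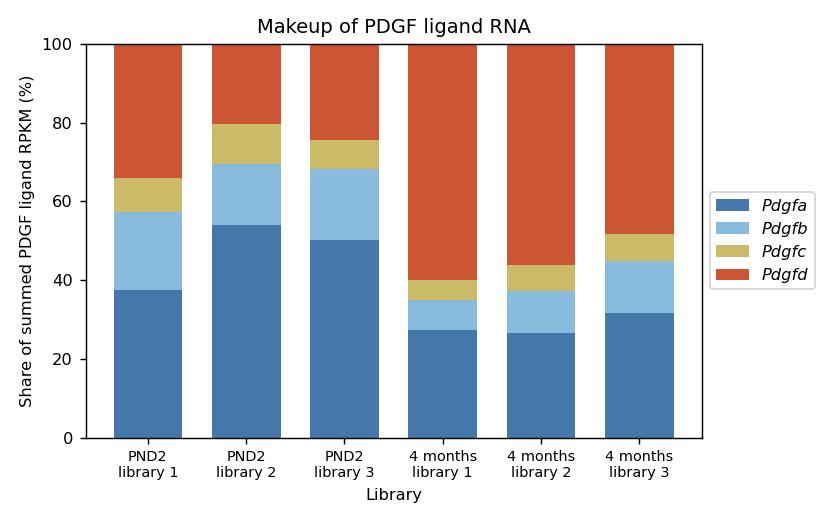
Share of each ligand in the summed RPKM of Pdgfa, Pdgfb, Pdgfc and Pdgfd (%), with a stacked bar for each library. Pdgfd fills 20.4 to 34.2% of the PND2 bars and 48.4 to 60.0% of the 4-month bars.

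The ratio of the 2 CUB-domain ligands, Pdgfd over Pdgfc, was 3.95, 2.00 and 3.34 at PND2 and 12.2, 8.71 and 7.09 at 4 months. The ages did not overlap and the ratio differed by 3.05-fold (exact permutation p = 0.1, adjusted over 5 ratios 0.167, 2-sided). Pdgfa over Pdgfb was 1.91, 3.54 and 2.77 at PND2 and 3.56, 2.48 and 2.41 at 4 months. These ranges overlapped widely (exact permutation p = 0.9).

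Of the receptors, Pdgfrb rose and Pdgfra did not pass the test. Pdgfrb (ENSMUSG00000024620, mm10 chromosome 18, 61045150 to 61085061, plus strand), the receptor of B and D chains on mural and mesenchymal cells, measured 64.2, 95.5 and 83.4 RPKM at PND2 and 149, 111 and 125 at 4 months. It had the highest mean of the 10 genes at both ages. Its libraries did not overlap, although the gap between the highest PND2 and the lowest 4-month library was smaller than the range within either age. The mean went from 81.0 ± 15.8 to 128 ± 19.5 (SD, n = 3), 1.58-fold, with a log2 fold change of 0.67 (SE 0.17, limma adjusted p = 0.0213). The call was lost without some single libraries. The limma adjusted p was 0.0535 without PND2 library 3, 0.0611 without 4-month library 1 and 0.0606 without 4-month library 3. The log2 fold changes there were 0.70, 0.56 and 0.68, with SE of 0.21, 0.18 and 0.21. The call was also lost without the mean-variance trend (0.0504) and with the study's kind of unequal-variance test for each gene (0.115). It was kept in 11 of 18 alternatives, among them median scaling (0.00675), quantile normalization (0.0108) and voom (0.00296). The log2 fold change stayed between 0.51 and 0.80 in all 18 alternatives.

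Pdgfra (ENSMUSG00000029231), the receptor of A, B and C chains and a marker of many fibroblasts, measured 42.2, 39.1 and 41.4 RPKM at PND2 and 50.7, 39.6 and 36.5 at 4 months. The 3 PND2 libraries sat inside the range of the 4-month libraries. Its log2 fold change was 0.03 with a 95% interval of -0.28 to 0.35 (limma adjusted p = 0.865). The ratio of Pdgfra to Pdgfrb was 0.658, 0.409 and 0.496 at PND2 and 0.340, 0.358 and 0.293 at 4 months. Pdgfrb was thus the more abundant receptor in all 6 libraries, by 1.52 to 2.44 times at PND2 and 2.80 to 3.42 times at 4 months (exact permutation p = 0.1, adjusted over 5 ratios 0.167).

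Marker genes of the cells that carry PDGFR-beta did not all move with it. Of 6 pericyte markers, Abcc9, Kcnj8 and Cspg4 rose (log2 fold changes 1.27, 1.11 and 0.82), Rgs5 and Notch3 fell (-0.99 and -1.11), and Higd1b was not called. Their summed RPKM was 202 to 356 at PND2 and 259 to 274 at 4 months. All 5 smooth muscle markers rose, with sums of 7130 to 8227 and 16365 to 27379 RPKM, and Myh11, a myosin of differentiated smooth muscle, had the largest change of the 5 (log2 fold change 3.47). The sums also differed within an age. PND2 library 1 was the lowest of its age for Pdgfrb, for the pericyte sum and for the smooth muscle sum, but the highest for Pdgfd. The library numbered 1 at 4 months was the highest of its age for Pdgfrb, Pdgfd and the smooth muscle sum, but the lowest for the pericyte sum. Of 7 interstitial markers, Dcn and Lum rose and Col1a1, Col1a2, Col3a1 and Postn fell. The part of these cells in the results for Pdgfrb and Pdgfd was not tested.

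Vegfa and Vegfb did not pass the test. Vegfa (ENSMUSG00000023951), the main growth factor of vessels, measured 55.8, 61.2 and 66.8 RPKM at PND2 and 57.2, 75.9 and 61.7 at 4 months. Its log2 fold change of 0.08 had a 95% interval of -0.23 to 0.38 (limma adjusted p = 0.684). Vegfb (ENSMUSG00000024962), a ligand of VEGFR1 that is abundant in heart muscle, measured 52.3, 61.6 and 64.2 RPKM at PND2 and 58.0, 66.3 and 68.3 at 4 months. The log2 fold change of Vegfb was 0.11 with an interval of -0.15 to 0.38 (limma adjusted p = 0.474). In this fit the ends of the intervals bound a rise of either gene to about 0.38 on the log2 scale. The bound depended on the processing. For Vegfa and Vegfb the upper ends were 0.51 and 0.50 with median scaling and 0.49 and 0.50 with voom. The 2 genes stood at near equal levels in each library, with a ratio of Vegfa to Vegfb between 0.995 and 1.07 at PND2 and between 0.903 and 1.14 at 4 months (exact permutation p = 0.7). They followed Pdgfrb in the order of levels at both ages, and their ranges overlapped each other.

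Angpt1 rose and Angpt2 did not pass the test. Angpt1 (ENSMUSG00000022309, mm10 chromosome 15, 42424727 to 42676977, minus strand), the activating ligand of TIE2, measured 3.97, 4.81 and 5.60 RPKM at PND2 and 15.4, 14.5 and 10.3 at 4 months. The lowest 4-month library was well above the highest PND2 library. The mean rose from 4.79 ± 0.813 to 13.4 ± 2.72 (SD, n = 3), 2.80-fold, with a log2 fold change of 1.46 (SE 0.20, limma adjusted p = 0.00183), and the call held in all 18 alternatives. Angpt1 was the lowest of the 10 genes at PND2, and at 4 months it had passed Pdgfc and overlapped Pdgfb.

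Angpt2 (ENSMUSG00000031465), the context-dependent antagonist, measured 24.8, 31.5 and 52.8 RPKM at PND2 and 38.9, 30.7 and 30.0 at 4 months. PND2 library 3 was the highest of all 6 and widened the interval, which ran from -0.69 to 0.55 around a log2 value of -0.07 (limma adjusted p = 0.868). Without that library the value was 0.24 (adjusted p = 0.359). Angpt2 was the more abundant angiopoietin of this pair in every library, by 6.25, 6.54 and 9.43 times at PND2 and by 2.52, 2.11 and 2.90 times at 4 months. The ratio of Angpt1 to Angpt2 thus differed by 2.92-fold without overlap of the ages (exact permutation p = 0.1, the smallest possible, adjusted over 5 ratios 0.167).

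**Figure D3:**
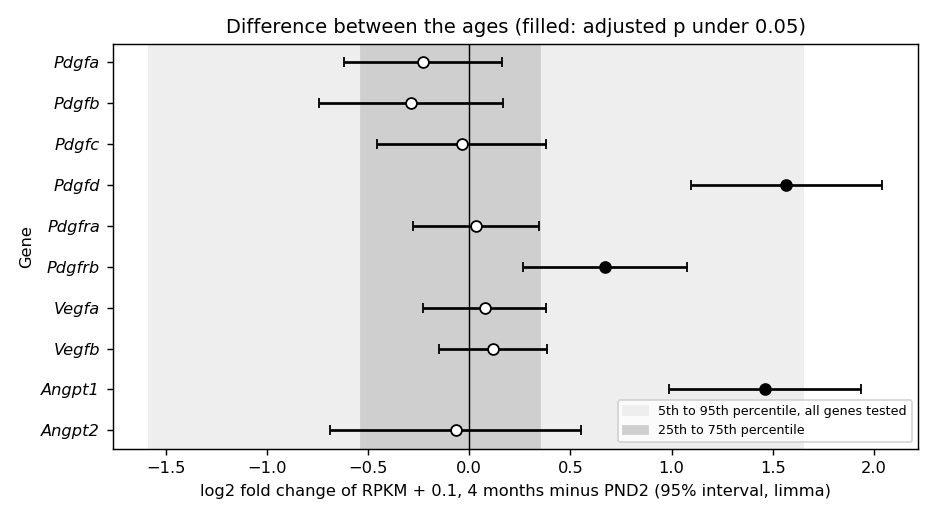
Log2 fold change of RPKM + 0.1 (4 months minus PND2) of the 10 genes with its 95% interval from limma; filled points have an adjusted p under 0.05, and the grey bands run from the 5th to the 95th and from the 25th to the 75th percentile of all genes tested. The intervals of Pdgfd, Pdgfrb and Angpt1 lie above 0, and those of the other 7 genes include it.

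The order of levels differed little between the ages except for the genes that rose. At PND2 the means ran from Pdgfrb (81.0 RPKM) through Vegfa (61.3), Vegfb (59.4), Pdgfra (40.9), Pdgfa (36.9), Angpt2 (36.3), Pdgfd (20.6), Pdgfb (13.8) and Pdgfc (6.82) to Angpt1 (4.79). Neighbours in this order overlapped in their libraries except at 4 steps: below Vegfb, below Pdgfd, below Pdgfb and below Pdgfc. At 4 months Pdgfd stood in the fourth place with a mean of 60.2 RPKM, overlapping Vegfb (64.2) and above all libraries of Pdgfra (42.3).

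Of 37 further genes of these pathways, 4 were called higher at 4 months and 17 lower, and 16 were not called. Over all genes tested, 14.7% were called higher and 21.1% lower. Their median log2 fold change was -0.31, against -0.14 over all genes tested. With median scaling the counts were 6 higher and 13 lower, against 4601 and 4129 of all 25903 genes tested. With the unequal-variance test they were 3 higher and 4 lower (Tek, Tie1, Furin and Plcg1), against 1466 and 1942 of all genes tested. All 5 VEGF receptors and co-receptors fell. Kdr, the main signalling receptor of VEGF-A, measured 35.3, 25.8 and 32.9 RPKM at PND2 and 14.3, 20.8 and 15.2 at 4 months (log2 fold change -0.91, limma adjusted p = 0.00784). Flt4, the receptor of VEGF-C and VEGF-D, fell by 1.02 on the log2 scale and the co-receptors Nrp1 and Nrp2 by 0.70 and 1.07.

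Flt1, the receptor shared by VEGF-A and VEGF-B, went from 18.9 ± 2.58 to 12.5 ± 1.79 RPKM (log2 fold change -0.60, limma adjusted p = 0.0198). Its call was lost without PND2 library 1 (0.0501) or 3 (0.0644), without 4-month library 1 (0.0603) or 3 (0.0698), and with median scaling (0.0613). The other 4 receptors kept theirs in every alternative but the unequal-variance test, in which none of the 5 was called (adjusted p 0.0716 to 0.113). All 5 had a negative log2 fold change under each scaling tried.

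In the angiopoietin pathway the receptor Tek fell from 80.2 ± 12.5 to 38.5 ± 5.26 RPKM (log2 fold change -1.05, limma adjusted p = 0.00220). Tie1, the partner receptor of TIE2, fell by 1.58 and Ptprb, the phosphatase that damps TIE2, by 0.72. Angpt4, another ligand of TIE2, rose: it measured 0.264, 0.351 and 0.527 RPKM at PND2 and 35.2, 19.4 and 31.7 at 4 months. This was the largest change of the 37 genes (log2 fold change 5.90, SE 0.30, limma adjusted p = 3.57e-05). It took Angpt4 from far below Angpt1 to above it in each of the 4-month libraries. Figf, the gene of VEGF-D, also rose, from 7.64 ± 1.04 to 18.7 ± 0.539 RPKM (log2 fold change 1.29, limma adjusted p = 0.000462), while the other ligands Vegfc and Pgf were not called (log2 fold changes -0.12 and 0.09).

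These receptor genes moved with markers of the endothelium. Of 8 endothelial markers, Cldn5, Emcn, Cdh5, Egfl7, Vwf and Pecam1 fell (log2 fold changes -1.65, -1.58, -1.46, -1.22, -0.72 and -0.49), Erg and Esam were not called, and the summed RPKM was 452 to 648 at PND2 and 269 to 291 at 4 months. The part of the endothelial share in the fall of the receptors was not tested. Of the endothelial genes linked to VEGF signalling, Dll4 and Nos3 fell (log2 fold changes -0.76 and -0.69), and Apln and Esm1 were not called (-0.84 and 0.47). The call of Dll4 was lost without PND2 library 3 (adjusted p = 0.0757) and without 4-month library 1 (0.0611) or 2 (0.0562).

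Set against the receptors in the same library, the ligands stood higher at 4 months in the VEGF and angiopoietin pairs. These pairs were chosen after the values were seen and are given without a test. Angpt1 was 0.0470, 0.0727 and 0.0622 of the RPKM of Tek at PND2 and 0.369, 0.352 and 0.318 at 4 months. Vegfa was 1.58, 2.37 and 2.03 times Kdr at PND2 and 4.01, 3.65 and 4.06 times Kdr at 4 months. Both pairs separated the ages completely, and in the second it was the receptor alone that passed the test. Pdgfd was 0.418, 0.167 and 0.227 of Pdgfrb at PND2 and 0.475, 0.505 and 0.432 at 4 months, so PND2 library 1 came close to the 4-month libraries. Pdgfb against Pdgfrb went the other way, at 0.240, 0.125 and 0.168 at PND2 and 0.0607, 0.0963 and 0.117 at 4 months, without overlap. Pdgfa against Pdgfra overlapped between the ages (0.698 to 1.09 and 0.637 to 0.965), as did Pdgfc against Pdgfra (0.137 to 0.205 and 0.115 to 0.208).

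Among genes that process PDGF chains or bind them, Lrp1, a large endocytic receptor that associates with PDGFR-beta, rose from 55.7 ± 11.7 to 177 ± 16.1 RPKM (log2 fold change 1.68, limma adjusted p = 0.000401). Furin, a protease that cleaves the A and B chain precursors, fell from 34.3 ± 2.85 to 19.8 ± 1.56 RPKM (-0.79, limma adjusted p = 0.00178). Plat, the plasminogen activator that can release the CUB domain of PDGF-C, was called higher (0.47, adjusted p = 0.0464), but the call was kept only without PND2 library 1 when single libraries were left out (adjusted p 0.103 and 0.125 without PND2 libraries 2 and 3, and 0.108, 0.0710 and 0.129 without 4-month libraries 1, 2 and 3). Plau, the activator linked to PDGF-D, was not called, at 8.25 ± 2.08 and 6.49 ± 0.152 RPKM, and St14, another protease that can cleave PDGF-D, stood below 1 RPKM in every library.

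Of 16 intracellular transducers downstream of these receptors, 6 fell and none was called higher, against 21.1% and 14.7% of all genes tested. The split depended on the processing. With median scaling 2 were called higher and 3 lower, with voom 3 and 3, and with the unequal-variance test 0 and 1. Akt1, a survival kinase, fell by 0.73 on the log2 scale, Gab1, an adaptor, by 0.64 and Plcg1, the phospholipase that binds VEGFR2 and the PDGF receptors, by 0.56 (limma adjusted p 0.00592, 0.00879 and 0.00223). Rasa1 and Shc1 fell by 0.48 and 0.41, and both calls were lost with median scaling (adjusted p 0.0823 and 0.0522). Without single libraries, Rasa1 lost its call for PND2 library 3 (0.0629) and 4-month libraries 1 (0.0582) and 3 (0.0667). Shc1 did so for PND2 libraries 2 (0.0903) and 3 (0.0986) and 4-month libraries 2 (0.0823) and 3 (0.0763). The 10 that were not called included the p85 and p110 subunits of PI3-kinase (Pik3r1 and Pik3ca), Grb2, Ptpn11 and Mapk3, and had log2 fold changes between -0.20 and 0.41.

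**Figure D4:**
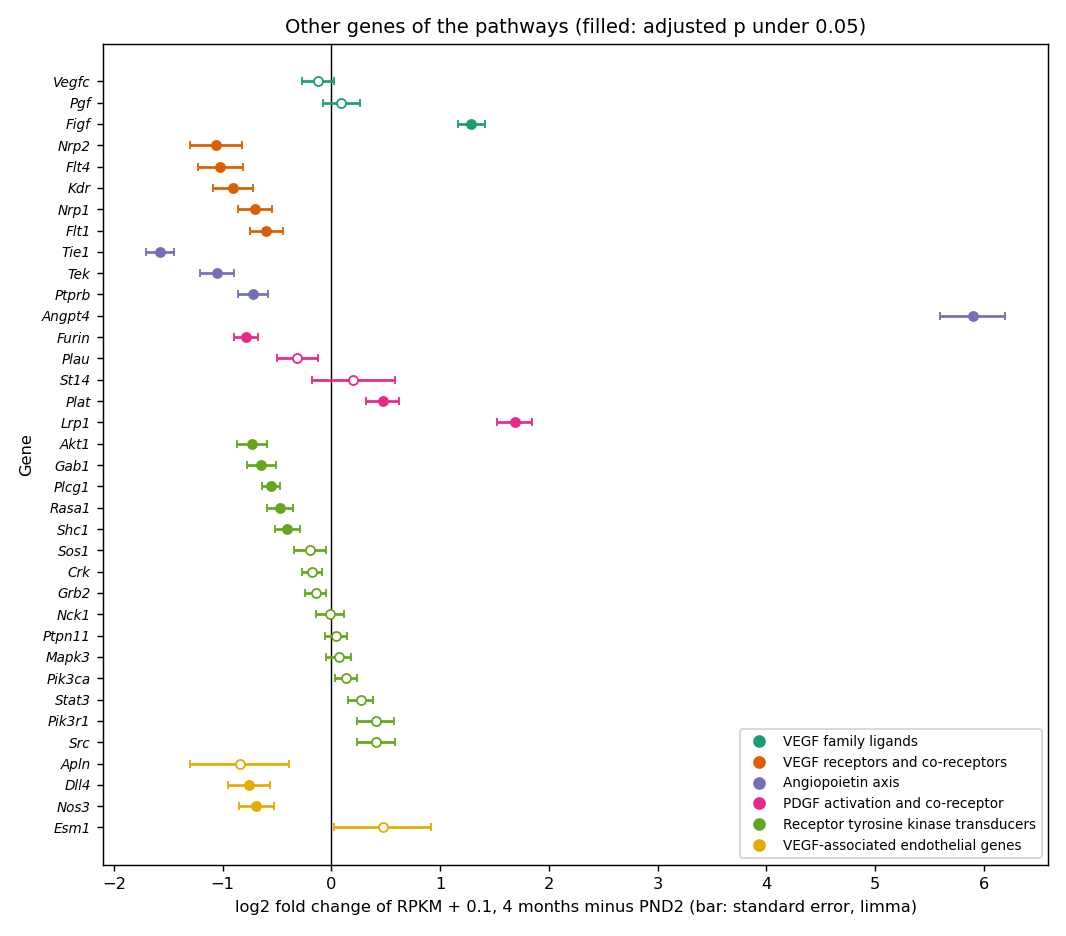
Log2 fold change of RPKM + 0.1 (4 months minus PND2) of 36 of the 37 other pathway genes with its standard error from limma, coloured by role; filled points have an adjusted p under 0.05. The receptors and co-receptors lie left of 0, and Angpt4 (5.90), Lrp1 (1.68) and Figf (1.29) lie farthest to the right.

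The other cell types that could bring in these transcripts were followed by their markers. Of 5 macrophage markers 4 rose (summed RPKM 129 to 161 at PND2 and 276 to 348 at 4 months). Of 5 adipocyte markers 4 rose, all but Fabp4, and of 6 cardiomyocyte markers 3 fell (Tnnt2, Actc1 and Myl2). Platelets carry PDGF chains, and none of 5 platelet markers was called (58.9 to 66.2 and 55.4 to 69.8 RPKM). Most of this sum was Pf4, with means of 56.6 and 58.8 RPKM. The log2 fold changes were 0.05 for Pf4, 0.98 for Ppbp, -0.67 for Itga2b, -0.87 for Gp9 and -0.78 for Gp1ba. Without the mean-variance trend 2 of the 5 were called lower, and without PND2 library 1 there was 1. Of 4 Schwann cell markers 1 rose, and all 5 mitosis markers fell. The part of these cells in the results for the 10 genes was not tested.

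The same 10 genes were then followed exon by exon, since alternative splicing decides whether VEGF-A and PDGF-A stay in the matrix or diffuse. Exons 6 and 7 of Vegfa encode basic stretches that bind heparan sulphate, and an isoform without them is freely diffusible. Exon 6 of Pdgfa encodes a basic motif that holds the long A chain at the cell surface and in the matrix. In Vegfb, inclusion of a stretch before the last exon shifts the frame and gives a soluble form in place of a heparin-binding one. The 4 stretches are given here from the reference genome GRCm38 (mm10), minus strand, with exon numbers of the GENCODE M21 transcripts Pdgfa-201, Vegfa-207 and Vegfb-201. Capitals mark codons of arginine or lysine, the basic residues. Coding bases are shown for Pdgfa exon 6 (chr5:138978638-138978690), all of Vegfa exon 6 (chr17:46022277-46022348) and exon 7 (chr17:46020991-46021122), and the alternative stretch of Vegfb exon 6 (chr19:6985496-6985596).
Pdgfa exon 6: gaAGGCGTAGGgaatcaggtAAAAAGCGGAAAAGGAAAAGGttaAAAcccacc
Vegfa exon 6: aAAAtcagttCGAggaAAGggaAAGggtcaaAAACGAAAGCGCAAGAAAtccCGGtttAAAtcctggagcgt
Vegfa exon 7: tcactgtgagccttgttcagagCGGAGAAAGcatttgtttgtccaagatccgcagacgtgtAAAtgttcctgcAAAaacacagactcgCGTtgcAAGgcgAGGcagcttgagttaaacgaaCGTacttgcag
Vegfb exon 6 stretch: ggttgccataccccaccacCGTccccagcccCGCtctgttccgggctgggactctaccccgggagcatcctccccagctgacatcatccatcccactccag

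Arginine and lysine fill 11 of 17 whole codons in the Pdgfa stretch and 12 of 23 in Vegfa exon 6, against 9 of 43 in Vegfa exon 7 and 2 of 33 in the Vegfb stretch. Over the whole annotated coding sequence of these transcripts the share is 19.4% in Pdgfa, 16.3% in Vegfa and 9.66% in Vegfb. The coding sequence of Vegfa-207 has 392 codons and does not start with ATG, so its share is not that of a form that does. The use of each stretch was measured as its reads per base over those of a reference exon of the same gene. Reads that overlap the ends of a short exon raise its value. For the Vegfb stretch the reads on the rest of its exon were subtracted from those on the whole exon. Reads that touch both parts are thus left out, which lowers its value. The ratios therefore compare the ages and do not give the share of transcripts.

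Vegfa exon 6 stood at 63.3, 36.4 and 63.6% of exon 3 in the PND2 libraries and at 41.1, 58.1 and 55.9% in the 4-month libraries, and the ages overlapped (exact permutation p = 0.6). Vegfa exon 7 stood at 114 ± 20.8% of exon 3 at PND2 and 110 ± 8.50% at 4 months (SD, n = 3, exact permutation p = 0.8). Exon 6 against exon 7 gave 47.4 ± 7.27% and 47.2 ± 10.1%. The Vegfb stretch stood at 41.0 ± 3.55% of the bases of its exon that both forms share at PND2 and 46.9 ± 5.98% at 4 months (exact permutation p = 0.3). Both basic exons of Vegfa were thus read in all 6 libraries, with 94 to 157 reads on exon 6 and 369 to 562 on exon 7.

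Exon 6 of Pdgfa was rarely read at either age. It held 3, 5 and 1 reads in the PND2 libraries and 13, 4 and 7 in the 4-month libraries, against 298 to 563 reads on exon 5. Per base this was 1.12, 1.63 and 0.405% of exon 5 at PND2 and 4.62, 2.47 and 2.98% at 4 months. The percentages did not overlap between the ages (exact permutation p = 0.1, the smallest possible, adjusted over 5 stretches 0.5), but they rest on 9 and 24 reads in all. In the test of exon use, the exon had a log2 difference of 1.75 from the rest of the gene and was not called (limma adjusted p = 0.956). It was called when reads were not weighted by their precision (adjusted p = 0.000385).

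**Figure D5:**
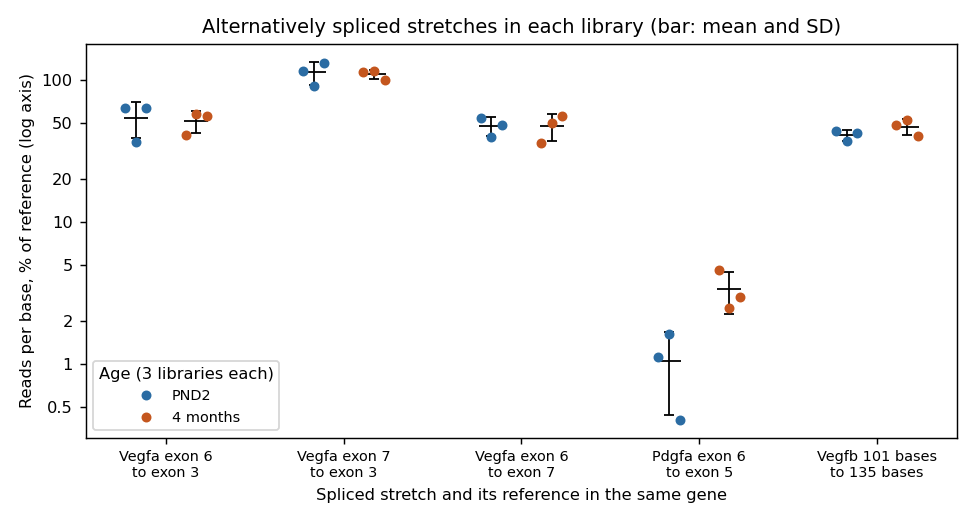
Reads per base of each alternatively spliced stretch as a percentage of its reference in the same gene (log axis), with PND2 in blue and 4 months in orange; points are libraries, and the bar and whiskers give mean and SD. The ages overlap for the Vegfa and Vegfb stretches, and for Pdgfa exon 6 all values lie below 5%.

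Across all exon intervals of the 10 genes no change of use was called. Of 170 intervals, 164 were tested and 0 were called, against 0.641% of all 243348 intervals tested (limma diffSplice on the reads recovered from RPKM, with voom weights). Overlapping versions of an exon entered as separate intervals. The rest of a gene can then hold reads of the interval itself, which can lessen its difference. At an unadjusted p under 0.05 there were 2 intervals, both of them overlapping versions of the first exon of Vegfa with the same reads. They stood 0.40 higher on the log2 scale than the rest of the gene at 4 months (diffSplice adjusted p = 0.548). The rises of whole genes were carried along their length. All 10 intervals of Pdgfd and all 9 of Angpt1 had every 4-month library above every PND2 library, as did 23 of the 25 tested intervals of Pdgfrb, against 16.0% of all intervals tested. Intervals of 1 gene share its reads and are not separate evidence. Log2 ratios of the mean RPKM were 1.23 to 1.72 over the intervals of Pdgfd, 1.13 to 1.58 over those of Angpt1 and 0.39 to 0.77 over those of Pdgfrb.

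Some exon bases of the 10 genes are shared with other annotated genes, and whether counting used strand is not stated, so these reads cannot be told apart. Genes on the opposite strand overlap exons of Pdgfa (6330403L08Rik), Pdgfc (Gm16000), Pdgfra (Gm42802 and Gm42803) and Angpt1 (Gm17473). On the same strand Mir7025 overlaps an exon of Pdgfra. It measured 13.4 to 18.6 RPKM at PND2 and 11.7 to 20.6 at 4 months. Gm17473, the overlap that concerns a gene that rose, measured 0.257 to 0.761 RPKM at PND2 and 0.771 to 1.71 at 4 months, and 8 of the 9 Angpt1 intervals share no base with it. No exon of another gene overlaps those of Pdgfd, Pdgfrb, Pdgfb, Vegfa, Vegfb or Angpt2.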

How the data were processed

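Gene and exon RPKM values of 6 aortic valve libraries, 3 per age, were analysed. The authors trimmed and filtered the reads, aligned them to mm10 with TopHat2 2.1.0, used easyRNASeq to count on Ensembl annotation, and deposited RPKM values per gene and per exon. The libraries were made with a stranded kit, and whether counting used strand is not given in the sources used here. RPKM times length and library total gave whole numbers for 100% of gene values above 0 (tolerance 0.001). These counts are called reads here, and the smallest step of a value is thus known. Summed over genes they came to 55069102 to 90673545 in a library, above the total of each library. A read can therefore be counted more than once. The lowest total gives the least precise values.

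Genes that reached 0.1 RPKM in 3 or more libraries entered limma 3.58.1 (R 4.3.3), fitted to log2(RPKM + 0.1) with the variance allowed to follow the mean. Fold changes on this scale understate those of low genes. Exon use was tested with voom weights and diffSplice, for exons that reached 1 RPKM in 3 libraries. Ratios and shares were compared by exact permutation. On simulated data of the gene comparison (26484 genes, 200 planted) limma found 55% of the genes planted at 2-fold and 94% of those at 4-fold, with 14 false calls. Far fewer genes were changed there than the 35.8% called in the data. The spread beyond counting noise was also set alike for every gene. The shares found therefore do not carry over to these data. The exon step (244967 exons) found 97.5% of exons planted at 3-fold, with 8 false calls in unchanged genes. This share is for the planted exons as a whole and is not split by read number. It therefore gives no figure for exons with few reads, such as the Pdgfa exon with the basic motif.

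Alternatives were pseudocounts of 1 and 0.01, no filter and an RPKM of at least 1, no trend, median scaling, quantile normalization, a replicate block, values of up to 10 reads floored, an unequal-variance test, voom on recovered reads, gene levels summed from exons, and each library left out in turn. The 10 genes, the pathway and marker lists and the genes named from them were chosen with earlier results of these data known. Nothing says that the pools came from separate litters, so p-values measure the spread between pools. Of 188 exons of the 10 genes, 187 are in GENCODE M21, 183 of them at the same position. Promoter and protein sequences were not used here. Python 3.11.15 served for tables (pandas 2.3.3, numpy 2.4.6) and figures (matplotlib 3.10.9). A few results of listed genes are not reported here, and one of these genes is left out of the figure of pathway genes; the counts include them.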

Additional observations from a re-analysis of the deposited data

How the results depend on the processing

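Pdgfd and Angpt1 kept their direction in all 18 alternatives, with log2 fold changes of 1.40 to 1.77 and 1.31 to 1.64. Under the unequal-variance test only Angpt1 of the 10 genes was called, so the count was 1 (Pdgfd adjusted p = 0.0518), and 3408 of 25903 genes were called against 9273. Pdgfrb also lost its call when values of up to 10 reads were floored (limma adjusted p = 0.056). None of its own values was floored, since it held 13373 to 30539 reads in each library. Its log2 fold change stayed at 0.67. Its SE, which limma draws in part from all genes, went from 0.17 to 0.19. None of the 10 genes was called lower in any of the 18 alternatives.

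Fold changes of genes that were not called could turn in sign. On the log2 scale Pdgfc was 0.0831 with median scaling, 0.00364 with quantile normalization and 0.0710 with voom, and Angpt2 was 0.0537, 0.00221 and 0.0644. With single libraries left out, Pdgfc ran from -0.162 to 0.0823, Angpt2 from -0.306 to 0.237, Pdgfra from -0.103 to 0.133 and Vegfa from -0.0407 to 0.162. Likewise the difference in the log2 ratio ran from -0.176 to 0.269 for Pdgfa to Pdgfb and from -0.131 to 0.0396 for Vegfa to Vegfb.

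Without weights, 1 exon interval of the 10 genes, Pdgfa exon 6, was called, and 3161 of all intervals were called against 1560. Leaving out libraries gave 798 to 2423. With voom, 7 pathway genes were called higher instead of 4, and 14 lower instead of 17; Src, Stat3 and Pik3r1 were the 3 added. Under the unequal-variance test 3 were called higher and 4 lower, and with median scaling 6 and 13.

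Both ages carry replicate numbers in the labels. The deviations of libraries with the same number correlated at 0.0439, -0.0608 and -0.16, and those of libraries with other numbers at -0.176 to 0.233. With 3 libraries per age, these values cannot tell whether same-numbered libraries share more than the number. With a replicate block 7167 genes were called instead of 9273, among them 2 of the 10 genes, since Pdgfrb had an adjusted p of 0.0604. Of the pathway genes 3 were called higher and 13 lower. None of the 164 exon intervals was called with the block.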
